A study of Mus musculus with 8 samples.

Results

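Messenger RNA for heterogeneous nuclear ribonucleoproteins (hnRNPs) and for core proteins of the spliceosome was examined in muscle stem cells of control and RhoA het mice. The set was a fixed list of 47 genes: the hnRNP A/B, D, F, H, C, K, L, M, R and U proteins, SF1, both U2AF subunits, the SF3A and SF3B subunits, 7 PRPF proteins, and the U1-specific and Sm proteins. All 47 were found by symbol among the 57180 genes measured. All 47 also passed the filter on low counts, which kept 15660 genes, and the lowest of them averaged 4.43 TPM. The list was drawn up by function and used no measured value, though it was drawn up with earlier results of these data known.

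Muscle stem cells (MuSCs) are the resident progenitors of skeletal muscle, and the libraries came from freshly isolated cells sorted by flow cytometry. The control group, labelled WT, had 4 libraries with replicate numbers 2, 5, 7 and 8. The RhoA het group had 4 libraries with replicate numbers 5, 6, 7 and 8, from SC-RhoAfl/+ mice, which carry a floxed RhoA allele beside an intact allele and whose genotype label reads "RhoA knockdown". The RhoA protein is a GTPase switch that acts on actin filaments and cell tension, and the design asks how expression and splicing differ when its activity is reduced. The Cre driver, the age and sex of the mice and any treatment are not given in the sources used here, nor is it stated whether each library is a separate animal, so p-values measure the spread between these libraries, which may in part be technical. Counts per gene do not show which exons were joined, so splicing itself was not measured here.

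Newly made transcripts are coated by hnRNP proteins, which influence which splice sites are used and how the RNA is packaged, exported and kept stable. The spliceosome is then built stepwise on each intron. The U1 particle, an RNA with its own proteins and a ring of Sm proteins, recognises the start of the intron, while SF1 and U2AF mark its branch point and its end. The U2 particle, which contains the SF3A and SF3B complexes, takes the branch point over, and the tri-snRNP with most of the PRPF proteins completes the assembly before catalysis. These proteins are made in nearly every cell, including quiescent stem cells.

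The promoters of 3 members are shown because the results below turn on them: Hnrnpk had the highest level of the set, Prpf3 alone had groups that did not overlap, and Prpf19 alone was called between replicate numbers. Each sequence is the 250 bases before a start site, read 5′ to 3′ along the gene, from RefSeq on GRCm38.p6 (of several start sites of a gene, the first in the table), and capitals mark matches to a searched motif on either strand: CCAAT in Hnrnpk and Prpf19, and GGAATG, the other strand of CATTCC, in Prpf3. The other Prpf3 start site, with the window chr3:95855754-95856003, held none of the searched motifs.
Hnrnpk promoter, chr13:58402118-58402367, minus strand: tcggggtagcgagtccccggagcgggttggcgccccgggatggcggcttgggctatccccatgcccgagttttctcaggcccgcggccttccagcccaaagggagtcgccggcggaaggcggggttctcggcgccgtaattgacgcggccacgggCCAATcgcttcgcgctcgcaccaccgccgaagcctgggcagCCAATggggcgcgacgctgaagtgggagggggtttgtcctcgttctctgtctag
Prpf3 promoter, chr3:95855886-95856135, minus strand: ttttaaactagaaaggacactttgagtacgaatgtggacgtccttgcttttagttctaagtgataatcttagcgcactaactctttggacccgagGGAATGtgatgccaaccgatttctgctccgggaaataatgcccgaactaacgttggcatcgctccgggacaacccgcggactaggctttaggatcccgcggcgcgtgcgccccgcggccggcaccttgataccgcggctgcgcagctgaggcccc
Prpf19 promoter, chr19:10894981-10895230, plus strand: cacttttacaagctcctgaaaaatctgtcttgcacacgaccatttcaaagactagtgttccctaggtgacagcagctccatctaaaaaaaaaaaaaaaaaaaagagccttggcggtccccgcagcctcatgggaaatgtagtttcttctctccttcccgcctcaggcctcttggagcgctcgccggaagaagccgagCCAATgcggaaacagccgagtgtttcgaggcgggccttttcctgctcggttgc
Promoters of 40 members were found, 54 start sites in all, and 47 of the 54 read along an annotated transcript. Sf3b4, Sf3b5, Hnrnpul2, Hnrnpll, Snrpb, Snrpd1 and U2af2 had no entry. Over the 250 bases, CCAAT occurred in 31 of 54 member promoters (57.4%, from 24 genes) and in 33.8% of all 32851 promoters of the table. The ETS-type word CCGGAAGT occurred in 9.3% of member promoters against 2.9% of all, and the CRE word TGACGTCA in 3.7% against 1.5%. CATTCC, the core word bound by TEAD factors, occurred in 7.4% of member promoters against 12.6% of all, and the CArG box of SRF in 0 of 54 against 1.5%. The median GC content was 59.6% in member promoters and 52.4% in all, and the shares were not matched for it. A match describes letters in this window and not binding.

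The libraries held 19138763 to 25606342 fragments assigned to genes. All 8 markers of muscle stem cells were present in every library, with Sdc4 at 4961 to 9376 TPM. Pax7, the transcription factor that marks these cells, was at 113, 117, 176 and 115 CPM in control and 78.6, 106, 99.5 and 82.7 CPM in RhoA het. The groups did not overlap in CPM, as in 1.81% of all genes. In TPM they did overlap, with control 2 at 49.6 below RhoA het 6 at 55.4 and RhoA het 7 at 56.5. The log2 fold change of Pax7 was -0.51 (SE 0.18, unadjusted p = 0.0173, edgeR adjusted p = 1.00), and its part in the members' values was not tested. Rhoa was measured at 383, 309, 273 and 334 CPM in the control libraries and 253, 271, 253 and 282 CPM in the RhoA het libraries, which overlap, with a log2 fold change of -0.29 (SE 0.13, unadjusted p = 0.0495, edgeR adjusted p = 1.00). CPM are counts divided by the TMM-scaled library size, for comparing libraries, and TPM are per-length values, for comparing genes. Some libraries stood apart in markers of other cells: all 10 endothelial genes were detected in every library, with a summed level of 42.3 to 122 TPM in control and 83.5 to 461 TPM in RhoA het, the highest in RhoA het 6. The 20 cycling cell genes summed to 254 to 696 TPM in control and 291 to 540 TPM in RhoA het, highest in both libraries numbered 5. Myofibre genes summed to 101 to 973 TPM in control and 79.0 to 787 TPM in RhoA het, highest in control 5 and RhoA het 6. Within each shared replicate number the myofibre sum was lower in RhoA het, at 383 against 973 TPM in number 5, 119 against 367 in number 7 and 79.0 against 130 in number 8. In a fit with the replicate number as a block, the median log2 fold change of the myofibre genes tested was -1.22. Acta1 and Atp2a1 were called lower (edgeR adjusted p = 0.0275 and 0.0349). That fit omits control 2 and RhoA het 6, whose myofibre sums were 101 and 787 TPM. In the fit of genotype over all 8 libraries the median was -0.11 and 0 myofibre genes were called, with Acta1 at -0.05 and Atp2a1 at -0.42. The part of the myofibre genes in the members' values was not tested. The 4 erythroid genes summed to 8.61 to 620 TPM in control and 11.6 to 1279 TPM in RhoA het, highest in RhoA het 6 and control 7. Bub1 of the cycling list was at 0 in control 2 and Tnnc2 of the myofibre list at 0 in RhoA het 8. The ranges of the remaining lists overlapped between groups, at 1139 to 3270 and 1869 to 3153 TPM for fibro-adipogenic genes, 501 to 1283 and 639 to 2115 for mural genes and 131 to 241 and 141 to 306 for Schwann genes, in control and RhoA het. Within each shared replicate number the Schwann sum was higher in RhoA het, at 216 against 168 TPM in number 5, 141 against 131 in number 7 and 306 against 241 in number 8. In the blocked fit 0 Schwann genes were called, and their part in the members' values was not tested. Immune genes summed to 305 to 826 TPM in control and 232 to 809 TPM in RhoA het, most of it from Lyz2, and 4 of the 9 passed the filter. Counts of other immune genes were highest in RhoA het 6, at 93 for Ptprc, 103 for Csf1r and 114 for Laptm5, against at most 11, 15 and 13 in any other library. In bulk samples, fewer cells of a type and less RNA per cell cannot be told apart.

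Messenger RNA of the 47 genes made up 0.66% of all TPM in RhoA het 6 and 0.767% to 0.828% in the other 7 libraries, so RhoA het 6 was the lowest by this measure. Levels ranged from 4.43 ± 0.841 TPM for Hnrnpul2 to 1008 ± 68.5 TPM for Hnrnpk (SD, n = 8 libraries), and 23 members averaged over 100 TPM while 7 averaged under 20 TPM. Ordered by mean TPM, the 47 genes formed 46 neighbouring pairs, and the ranges over libraries were apart in only 4 of them: Snrpb above Hnrnpc, U2af1 above Hnrnpdl, Hnrnph1 above Hnrnpa3, and Prpf4 above Hnrnpul2. The order was the same in all 8 libraries for 7 of the 46 pairs, so most neighbours did not differ beyond their spread. The highest library exceeded the lowest by a median of 1.51-fold in TPM, from 1.19-fold for Hnrnpk and Hnrnpa3 to 2.17-fold for Hnrnpll, with Prpf19 (2.15-fold) and Hnrnpu (2.08-fold) as the only others past 2-fold.

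**Figure D1:**
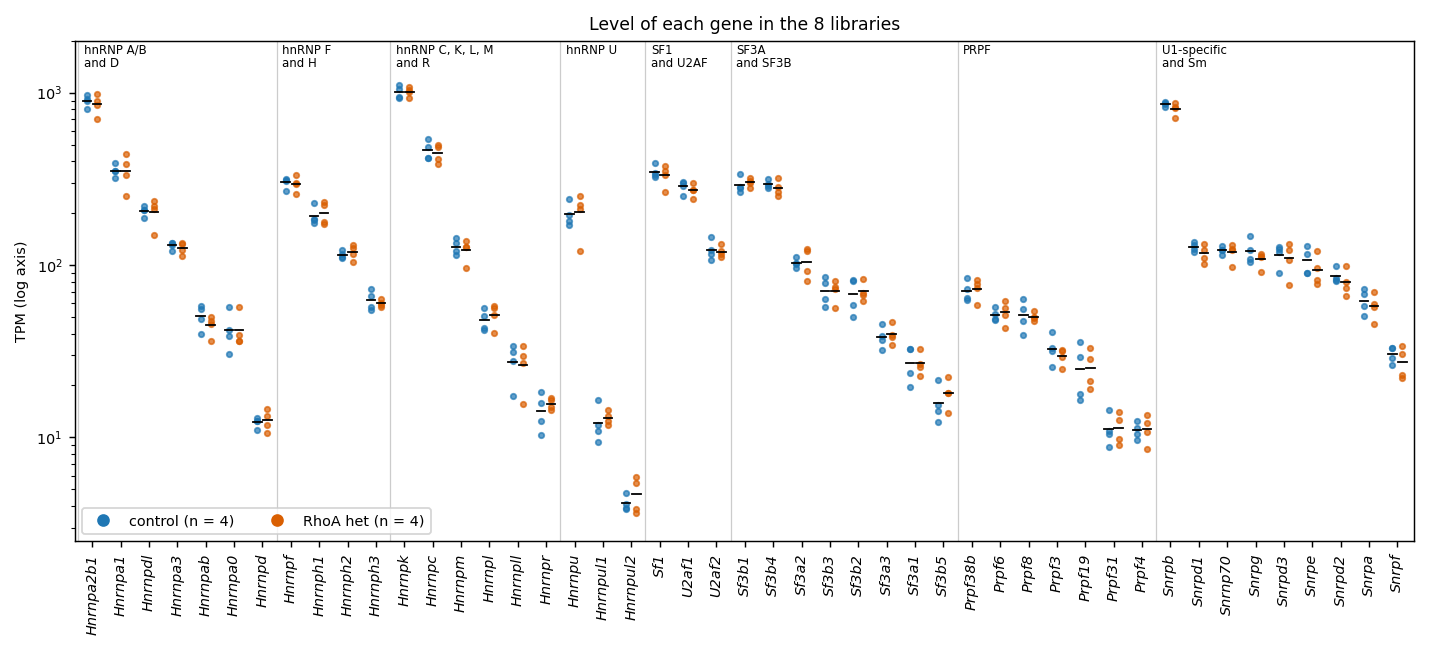
TPM of each of the 47 genes on a log axis, with 1 point per library (blue control, orange RhoA het, n = 4 each) and black bars at group means, arranged by protein class and by mean level within a class. Hnrnpk, Hnrnpa2b1 and Snrpb stand highest, Hnrnpul2 lowest, and the groups overlap for all 47 genes on this scale.

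Among the hnRNP A/B and D proteins, which bind nascent RNA and often repress splice sites, Hnrnpa2b1 was the most abundant (chr6:51437912-51446874, mm39). It reached 966, 890.3, 804 and 924 TPM in the control libraries and 852, 704, 892 and 985 TPM in the RhoA het libraries, libraries being listed here and below in the order 2, 5, 7, 8 for control and 5, 6, 7, 8 for RhoA het. RhoA het 6 was lowest and the groups overlapped. The other members of the class averaged 352 TPM for Hnrnpa1, 205 for Hnrnpdl, 128 for Hnrnpa3, 47.6 for Hnrnpab, 42.2 for Hnrnpa0 and 12.4 for Hnrnpd. The ratio of Hnrnpa2b1 to its close relative Hnrnpa1 lay between 2.02 and 3.04 in the 8 libraries, with group means of 2.57 ± 0.399 in control and 2.504 ± 0.456 in RhoA het (SD, n = 4 each). Hnrnpdl stood 12.6 to 20.8 times above Hnrnpd.

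The hnRNP F and H proteins, which bind runs of G, were led by Hnrnpf (chr6:117877285-117902583). Hnrnpf measured 270.1, 308, 314 and 313 TPM in the control libraries and 293, 257, 333 and 298 TPM in the RhoA het libraries. RhoA het 6 was again the lowest and RhoA het 7 the highest. Hnrnph1 averaged 197 TPM, Hnrnph2, its X-linked relative, 117 TPM, and Hnrnph3 61.3 TPM, and Hnrnph1 exceeded Hnrnph2 by 1.35 to 2.24 times over the libraries.

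Hnrnpk, whose KH domains bind C-rich RNA, was the most abundant of all members (chr13:58538956-58551157). Its levels were 939, 1102, 1050 and 931 TPM in the control libraries and 1037, 927, 1072 and 1007 TPM in the RhoA het libraries. No library stood far from the others. Hnrnpc, which binds runs of U, averaged 454 TPM, Hnrnpm 125, Hnrnpl, which binds CA repeats, 49.8, its paralogue Hnrnpll 27.0, and Hnrnpr 14.97 TPM. Hnrnpl exceeded Hnrnpll in every library, by 1.25 to 2.61 times.

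Hnrnpu, a large protein that holds RNA on chromatin, dominated the U class (chr1:178148673-178165362). It measured 196, 180.5, 169.7 and 243 TPM in the control libraries and 212, 121, 252 and 223 TPM in the RhoA het libraries. RhoA het 6 was the lowest of the 8 and RhoA het 7 the highest, so the extremes lay within 1 group. Hnrnpul1 averaged 12.6 TPM and Hnrnpul2 4.43 TPM.

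SF1 binds the branch point and U2AF the end of the intron, with U2af2 contacting the pyrimidine tract and U2af1 the AG. Sf1 (chr19:6413720-6428060) measured 389, 322, 339.6 and 334 TPM in the control libraries and 266, 332, 378 and 351 TPM in the RhoA het libraries. Control 2 was highest and RhoA het 5 lowest. U2af1 averaged 279 TPM and U2af2 121 TPM, although their proteins form a dimer, and the ratio of U2af1 to U2af2 was 2.00 to 2.81 in the libraries.

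In the SF3A and SF3B complexes of the U2 particle, Sf3b1, which clamps the branch point helix, was the most abundant (chr1:55024328-55066640). It measured 339, 265, 282 and 280.1 TPM in the control libraries and 307, 282, 297 and 322 TPM in the RhoA het libraries, with control 2 at the top. Sf3b4 averaged 287 TPM, close to Sf3b1, while Sf3a2 averaged 104, Sf3b3 70.9, Sf3b2 69.0, Sf3a3 38.95, Sf3a1 27.0 and Sf3b5 17.0 TPM. Subunits of the same complex therefore differed widely in messenger RNA per length. The table counts Sf3b5 over 3841 exonic bases and Hnrnpr over 22199, and a long annotated exon that is little used lowers a TPM value.

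The PRPF proteins had a class median of 31.1 TPM, above that of the U class alone. Prpf38b, which has a domain related to yeast Prp38, led them (chr3:108810121-108819043) with 64.3, 84.05, 72.8 and 62.8 TPM in the control libraries and 81.8, 58.7, 77.99 and 73.7 TPM in the RhoA het libraries. Control 5 was highest and RhoA het 6 lowest. Prpf8, which forms the scaffold of the catalytic centre, averaged 50.8 TPM, and of its tri-snRNP partners Prpf6 averaged 52.3, Prpf3 31.1, Prpf31 11.2 and Prpf4 11.1 TPM. Prpf19, the ubiquitin ligase of the complex named after it, averaged 25.1 TPM.

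Snrpb, which encodes the B proteins of the Sm ring, was the highest in its class (chr2:130013555-130021323). It measured 872, 859, 821 and 881 TPM in the control libraries and 824, 714, 874 and 818 TPM in the RhoA het libraries. RhoA het 6 was lowest and the other 7 libraries lay between 818 and 881 TPM. The other Sm genes averaged 122 TPM for Snrpd1, 114 for Snrpg, 112 for Snrpd3, 100.2 for Snrpe, 83.0 for Snrpd2 and 28.9 for Snrpf, although the ring holds 1 copy of each protein. Snrpb exceeded Snrpd1 by 6.04 to 7.42 times in the libraries. The U1-specific genes Snrnp70 and Snrpa averaged 121 and 60.0 TPM.

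Levels of some members are uncertain because other annotated genes hold the same sequence. Of the distinct 50-base words in the transcripts, 89.5% recurred in other genes for Snrpf, 61.9% for Hnrnpf, 45.3% for Sf3b4, 28.2% for Hnrnpa1, 27.1% for Hnrnpa3, 23.8% for Hnrnpab, 21.7% for U2af1 and 20.2% for Snrpa. The share was 0% for Hnrnpa0, Prpf4, Prpf6, Prpf8 and Prpf38b. Snrpf, Hnrnpf, Hnrnpk, Hnrnpu, Hnrnpab and Hnrnph3, among others, also overlap exons of a gene on the other strand, and the counting did not use strand.

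None of the 47 genes was called between the genotypes by edgeR's quasi-likelihood test with Benjamini-Hochberg adjustment over all 15660 genes, and the test called 0% of all genes. At an unadjusted p under 0.05 the count was also 0 of 47, against 2.38% of all genes tested. The DESeq2 Wald test and limma-voom likewise called 0 members. The smallest unadjusted p of a member was 0.078, for Prpf3. The 95% confidence intervals had half-widths of 0.25 to 0.65 in log2, and over all members their bounds ran from -0.84 to 0.51. Fitted differences smaller than these half-widths could not be told from 0 at this spread. The intervals are unadjusted, so a call after adjustment over all 15660 genes asked for a still larger difference.

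Fitted differences were mostly small and below 0. Of the 47 log2 fold changes, 42 were below 0 with TMM scaling (50.1% of all genes were), 33 with total counts in place of TMM and 26 on the log2(TPM + 1) scale. The median member stood at -0.10 with TMM, -0.04 with total counts and -0.02 on the TPM scale, where the median over all genes was 0.00, 0.04 and 0.07. The median was -0.06 without control 2, with 32 of 47 below 0, -0.17 without control 5, and -0.16 without RhoA het 7. Control 2 had the smallest TMM factor, 0.852 against 0.968 to 1.07 in the others, and was the highest library in CPM for 21 members but in TPM for 4. RhoA het 6 was the lowest library in CPM for 18 members and in TPM for 25. Whether the endothelial, erythroid and immune genes that were high in RhoA het 6 bear on this was not tested. In the 6 libraries whose numbers occur in both groups, which omit both of these libraries, the median stood at -0.04 in a fit blocked by replicate number and at -0.04 in an unblocked fit. The blocked fit called 0 members (0.0127% of all genes), and at an unadjusted p under 0.05 it again gave 0 members (5.26% of all genes).

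**Figure D2:**
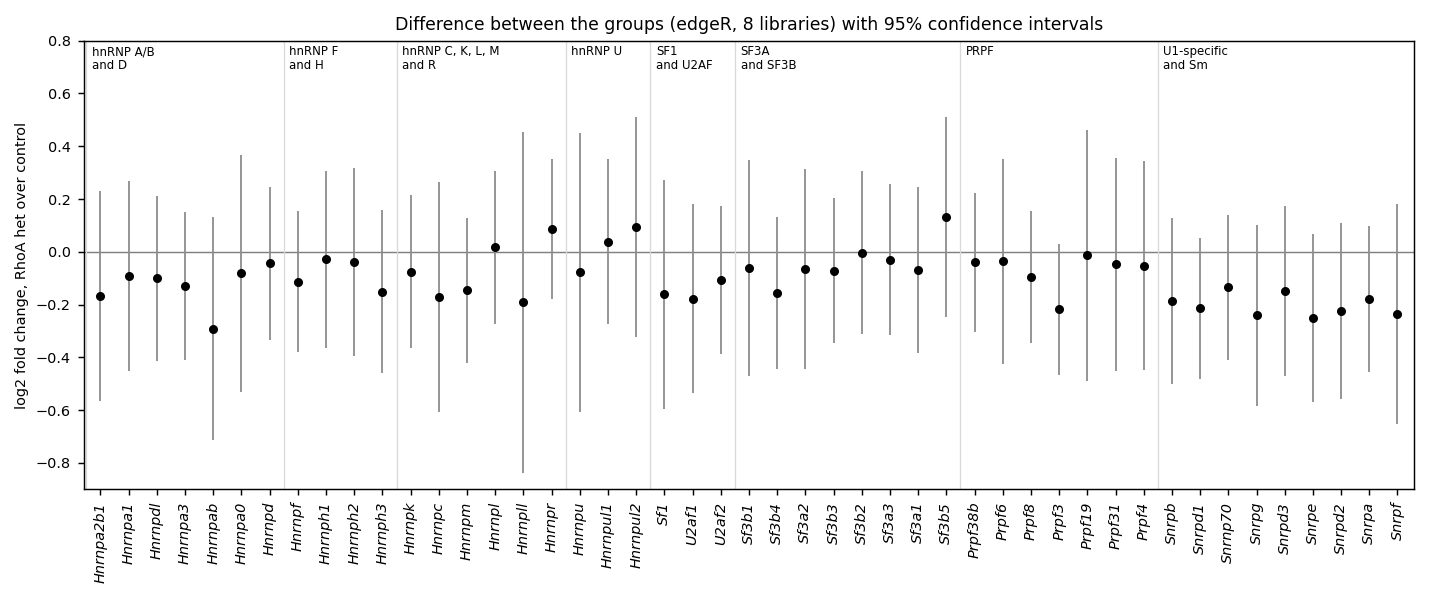
Fitted log2 fold change of RhoA het over control for each of the 47 genes (points) with 95% confidence intervals (bars) from edgeR over 8 libraries, by class. All intervals include 0, and the 9 U1-specific and Sm genes lie between -0.25 and -0.13.

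By class, the U1-specific and Sm genes had the lowest median log2 fold change, -0.21, and none of the 9 was called. All 9 values were below 0, from -0.25 for Snrpe to -0.13 for Snrnp70, and they stayed below 0 under the RLE, upper-quartile and total-count scalings, on the TPM scale, and when each library was left out in turn, with class medians of -0.13 to -0.26. The rank as lowest class was less stable. The SF1 and U2AF median was lower without control 5 (-0.27 against -0.263) and without RhoA het 8 (-0.187 against -0.17). Snrpd1, a Sm ring protein, had the smallest p of the U1-specific and Sm class. It measured 97.8, 75.3, 83.7 and 79.8 CPM in the control libraries and 78.5, 67.8, 75.8 and 68.1 CPM in the RhoA het libraries, with the highest control library, control 2, well above the rest and overlap between the groups. Its log2 fold change was -0.21 (SE 0.12, with bounds of -0.48 to 0.05 at 95%, unadjusted p = 0.104). The Sm genes are not independent of one another within a library, and the count of 9 is a description.

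Among the PRPF genes, Prpf3, a tri-snRNP protein that contacts the U4/U6 duplex (chr3:95737436-95763197), was the only member whose groups did not overlap in CPM, as in 1.81% of all genes. It measured 56.4, 64.4, 55.8 and 58.8 CPM in the control libraries and 47.8, 45.9, 53.97 and 54.6 CPM in the RhoA het libraries. Every RhoA het value lay below the lowest control value, by a small margin between control 7 and RhoA het 8. Group means were 58.8 ± 3.93 CPM in the controls against 50.6 ± 4.37 CPM in the RhoA het libraries (SD, n = 4 a group), and the fitted log2 difference was -0.22 (SE 0.11, edgeR adjusted p = 1.00). The two-sided exact permutation test gave p = 0.0286, the smallest that 4 against 4 libraries allow, as the lowest of 47 such tests and without adjustment. In TPM the groups did overlap: 25.7, 40.7, 32.9 and 31.7 TPM in the control libraries and 29.4, 24.9, 31.7 and 32.03 TPM in the RhoA het libraries. The other 6 PRPF genes had log2 fold changes from -0.10 (Prpf8) to -0.01 (Prpf19), and on the TPM scale 2 of the 7 values in the class were below 0.

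SF1 and U2AF genes had log2 fold changes of -0.16 for Sf1, -0.18 for U2af1 and -0.11 for U2af2. U2af1 measured 302, 182, 225 and 259 CPM in the control libraries and 204, 204, 212 and 235 CPM in the RhoA het libraries. Control 2 was the highest and control 5 the lowest of the 8 libraries, and the RhoA het libraries fell within the control range. The interval for U2af1 was -0.54 to 0.18 (unadjusted p = 0.292). Without control 2 the value for Sf1 was 0.01. Without control 5 the value for U2af1 was -0.31 (unadjusted p = 0.0483, edgeR adjusted p = 0.999).

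The SF3A and SF3B genes had a median of -0.06, with 7 of 8 below 0 under TMM, 4 of 8 with total counts and 1 of 8 on the TPM scale. Sf3b4, which binds RNA beside the branch point, had the smallest p. It measured 241, 191, 181 and 208 CPM in the control libraries and 176, 177, 208 and 174 CPM in the RhoA het libraries, with control 2 highest and RhoA het 8 lowest. Its log2 fold change was -0.16 (SE 0.13, unadjusted p = 0.25). Sf3b5, a small subunit of the complex, stood at 0.13, the highest value of the 47, with an interval of -0.25 to 0.51.

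Among the hnRNP A/B and D genes, 7 of 7 values were below 0 with TMM and 5 of 7 on the TPM scale, with a median of -0.10. Hnrnpab had the lowest value of all 47 members. It measured 60.1, 38.04, 33.4 and 52.5 CPM in the control libraries and 40.1, 32.7, 37.8 and 39.5 CPM in the RhoA het libraries. Control 2 and control 8 were above every RhoA het library, while control 5 and control 7 lay among them. This gave a log2 fold change of -0.29 (SE 0.19, with bounds of -0.72 to 0.13 at 95%, unadjusted p = 0.153).

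For the hnRNP F and H genes the median was -0.08 with TMM and 0.01 on the TPM scale. Hnrnph3 measured 69.8, 48.1, 68.4 and 68.3 CPM in the control libraries and 52.9, 58.7, 57.2 and 60.4 CPM in the RhoA het libraries. Its control libraries were close together except for control 5, which was the lowest of all 8. The log2 fold change was -0.15 (SE 0.14, unadjusted p = 0.301), and without control 5 it was -0.28 (unadjusted p = 0.0272, edgeR adjusted p = 0.999).

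Within the C, K, L, M and R class, Hnrnpm, which binds GU-rich RNA, had the smallest p. It measured 350.3, 317, 320.5 and 314 CPM in the control libraries and 292, 248, 329.5 and 306 CPM in the RhoA het libraries. RhoA het 6 was lowest, and RhoA het 7 exceeded 3 of the 4 controls. The log2 fold change was -0.15 (SE 0.12, unadjusted p = 0.26). Hnrnpk stood at -0.08, Hnrnpc at -0.17, Hnrnpll at -0.19, Hnrnpl at 0.02 and Hnrnpr at 0.09. The interval of Hnrnpll, -0.84 to 0.46, was the widest of the 47. In the U class, Hnrnpul2 measured 10.6, 9.48, 8.69 and 9.07 CPM in the control libraries and 12.02, 8.41, 11.7 and 8.28 CPM in the RhoA het libraries, with RhoA het 5 and RhoA het 7 above every control and RhoA het 6 and RhoA het 8 below them all. Its log2 fold change was 0.09 (SE 0.19, unadjusted p = 0.627), while Hnrnpul1 stood at 0.04 and Hnrnpu at -0.08.

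Other genes of the splicing machinery, from lists drawn up by function, also gave 0 calls. At an unadjusted p under 0.05 the count over all these lists was 1, Strap, against 2.38% of all genes tested. The LSM list, Lsm1 to Lsm8, whose proteins form rings related to the Sm ring, had 7 of 8 genes below 0. Its median was -0.15, and 6 of 8 were below 0 with total counts. Lsm3 stood at -0.33 (SE 0.17) and Lsm4 at -0.22 (SE 0.13). The other spliceosome proteins had 25 of 45 below 0 with a median of -0.01, and 16 of 45 with total counts. Among them Snrpb2, a U2 protein, stood at -0.19, and Dhx15, a helicase that takes spliceosomes apart, at -0.17. Dhx15 was at 341 to 390 CPM in control and 288 to 334 CPM in RhoA het, so its groups did not overlap (exact two-sided permutation p = 0.0286, the smallest possible; edgeR unadjusted p = 0.154), as in 1.81% of all genes. The minor spliceosome had 6 of 8 below 0 and a median of -0.03, with 3 of 8 on total counts, including Snrnp35 at -0.26 and Zcrb1 at 0.15. Other hnRNP-associated proteins had 13 of 15 below 0 with a median of -0.12, and 11 of 15 with total counts, including Sfpq at -0.24.

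The snRNP assembly list covers the SMN complex and its partners, which load the Sm ring onto the RNA. Of 13 genes, 12 were tested and Gemin4 fell under the filter, and 10 of 12 values were below 0 with a median of -0.10 (9 of 12 with total counts). Strap, a subunit of the SMN complex, measured 349, 413, 368 and 381 CPM in the control libraries and 296, 277, 315 and 287 CPM in the RhoA het libraries. Every RhoA het library was below every control library, an absence of overlap found in 1.81% of all genes. Group means were 378 ± 27.1 CPM in the controls against 294 ± 16.01 CPM in the RhoA het libraries (SD, n = 4 a group), with a log2 fold change of -0.36 (SE 0.11, unadjusted p = 0.00897, edgeR adjusted p = 1.00). Gemin6 stood at -0.36 with a larger error (SE 0.21) and overlapping groups.

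**Figure D3:**
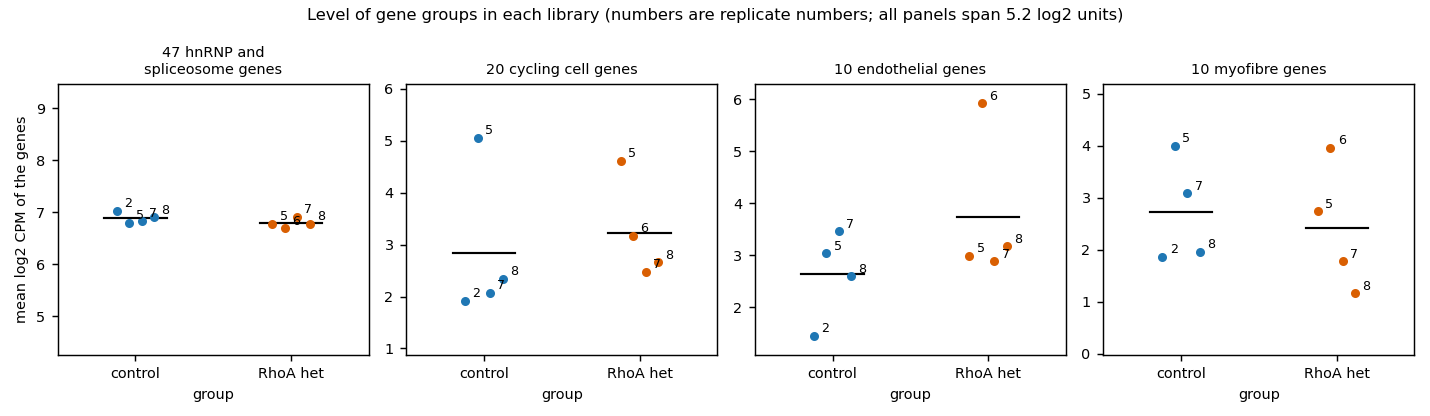
Mean log2 CPM of 4 gene groups in each library (points, labelled with replicate number) with group means (bars), on axes of equal span. The 47 hnRNP and spliceosome genes lie between 6.69 and 7.03 in all libraries, while cycling cell genes reach 5.05 in control 5 and endothelial genes 5.93 in RhoA het 6.

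As a set, the 47 genes varied little between libraries. Their mean log2 CPM lay between 6.69 in RhoA het 6 and 7.03 in control 2. In edgeR's fit, 44 of 47 members (93.6%) had a dispersion below the trend for genes of their abundance, against 77.3% of all genes tested, and the exceptions were Hnrnpll, Hnrnpu and Prpf19. The median biological coefficient of variation was 17.6% for members and 27.7% for all genes tested. The latter include many genes of lower abundance.

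Replicate numbers 5, 7 and 8 occur in both groups, and libraries of the same number resembled each other over all genes. The numbers were therefore compared in a fit that also held genotype. Of the 47 genes, 1 differed between the numbers, Prpf19, against 11.3% of the 15714 genes tested in these 6 libraries. The next lowest adjusted p was 0.0894, for Hnrnpa0. Number 5 was set against the mean of 7 and 8 because libraries of this number were already known to be high in cell cycle genes. In this contrast 1 member was called higher (4.89% of all genes) and 0 lower (4.4% of all genes), and 14 of 47 values were above 0 (48.8% of all genes), with a median of -0.07. By the same test 17 of the 20 cycling cell genes and 7 of 10 myofibre genes were called higher in number 5, with list medians of 2.69 and 1.68. Their part in the members' values was not tested.

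Prpf19 (chr19:10872595-10886923), whose promoter is shown above, measured 46.7, 72.5, 63.5 and 42.4 CPM in the control libraries and 68.8, 50.2, 62.3 and 41.7 CPM in the RhoA het libraries. The libraries numbered 5 were the highest in each group and those numbered 8 the lowest, and libraries of 1 number lay within a few CPM of each other. Between numbers the edgeR adjusted p was 0.012, and number 5 exceeded 7 and 8 by a log2 difference of 0.46 (SE 0.12, adjusted p = 0.0356). The genotype difference of the same gene was -0.01 (SE 0.21). Leaving out control 5 or RhoA het 5 ended the call, which then rested on 1 library of number 5. Its call in the contrast of number 5 with 7 and 8 was also lost without control 7, where Sf3a2 was called, and without RhoA het 7, where Hnrnpa0 was called.

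Hnrnpa0, an intronless member of the A/B family, measured 40.2, 42.97, 24.5 and 36.8 CPM in the control libraries and 44.1, 31.4, 31.5 and 29.4 CPM in the RhoA het libraries. Both libraries numbered 5 were the highest of their group, and control 2 was close to them. Its difference of number 5 from 7 and 8 was 0.52, the largest of the 47, with an adjusted p of 0.0619. It was called between numbers with total counts in place of TMM (adjusted p = 0.0469), without the filter on low counts (0.0226), and when control 8, RhoA het 7 or RhoA het 8 was left out. Hnrnpll measured 152, 89.7, 60.1 and 119 CPM in the control libraries and 113, 58.7, 94.00 and 103 CPM in the RhoA het libraries. The control libraries spread over more than the RhoA het libraries, with control 2 highest and control 7 near the lowest, RhoA het 6. Its adjusted p between numbers was 0.148.

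**Figure D4:**
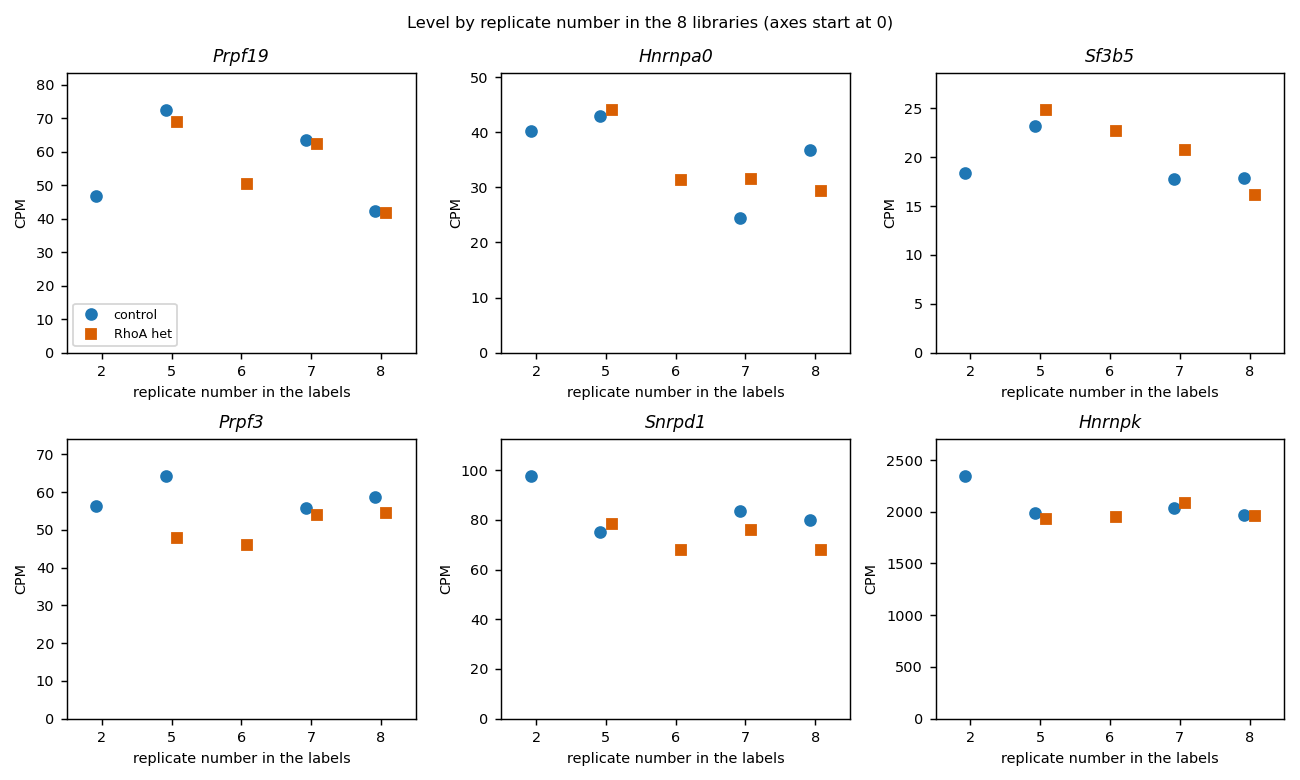
CPM of 6 members against the replicate number in the labels, with control libraries as blue circles and RhoA het libraries as orange squares, 1 point per library and axes from 0. Same-numbered libraries nearly coincide for Prpf19 and separate by number, while for Prpf3 the squares lie below the circles and for Hnrnpk all 8 libraries are close together.

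The other members with the smallest p of their class did not pass the threshold between numbers. Sf3a2, an SF3A subunit, measured 99.4, 76.4, 80.7 and 96.6 CPM in the control libraries and 62.02, 79.7, 99.4 and 96.2 CPM in the RhoA het libraries. Both number 5 libraries were the lowest of their group, and the difference of number 5 from 7 and 8 was -0.43 (adjusted p between numbers 0.146). Snrpe measured 47.7, 49.7, 47.8 and 40.3 CPM in the control libraries and 47.5, 36.5, 39.7 and 32.1 CPM in the RhoA het libraries, where number 8 was lowest in each group, with a difference for number 5 of 0.30 (adjusted p between numbers 0.19). Sf1 measured 936, 559, 632 and 679 CPM in the control libraries and 475, 672, 704 and 657 CPM in the RhoA het libraries, again with number 5 lowest in each group, and a difference of -0.37 (adjusted p between numbers 0.204). Hnrnph2 measured 206, 135, 143 and 166 CPM in the control libraries and 130.4, 164, 165 and 172 CPM in the RhoA het libraries, and both number 5 libraries were the lowest of their group, at a difference of -0.28 (adjusted p between numbers 0.258). Hnrnpu measured 878, 585, 590.0 and 921 CPM in the control libraries and 706, 456, 878 and 778 CPM in the RhoA het libraries, with RhoA het 6 lowest and a difference for number 5 of -0.29 (adjusted p between numbers 0.346). In the other spliceosome lists, Prpf38a (adjusted p = 0.0489) and the minor spliceosome gene Rnpc3 (adjusted p = 0.0422) were called between numbers. These were 1 of 45 and 1 of 8 genes, with 0 of 8 LSM, 0 of 15 hnRNP-associated and 0 of 12 snRNP assembly genes, against 11.3% of all genes.

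Composition within the set was described with each gene's log2 TPM relative to the mean of the 47 genes in the same library, which removes any shift common to all of them. The first principal component held 37.9% of this variance and the next 28.1%. Scores on the first were -1.28 for control 2, -0.836 for control 8 and -0.615 for RhoA het 8. They were 0.903 for control 5, 0.705 for control 7, 0.474 for RhoA het 5, 0.384 for RhoA het 6 and 0.263 for RhoA het 7. Libraries with the same number thus had scores of the same sign on the first component, and each sign held libraries of both genotypes. On the second component this did not hold for number 8, with control 8 at 0.216 and RhoA het 8 at -0.414. On the first component Prpf19, Sf3b5, Hnrnpr and Sf3b2 had the largest positive loadings, and Hnrnpll, Hnrnpab, Hnrnpc and Hnrnpu the largest negative ones.

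**Figure D5:**
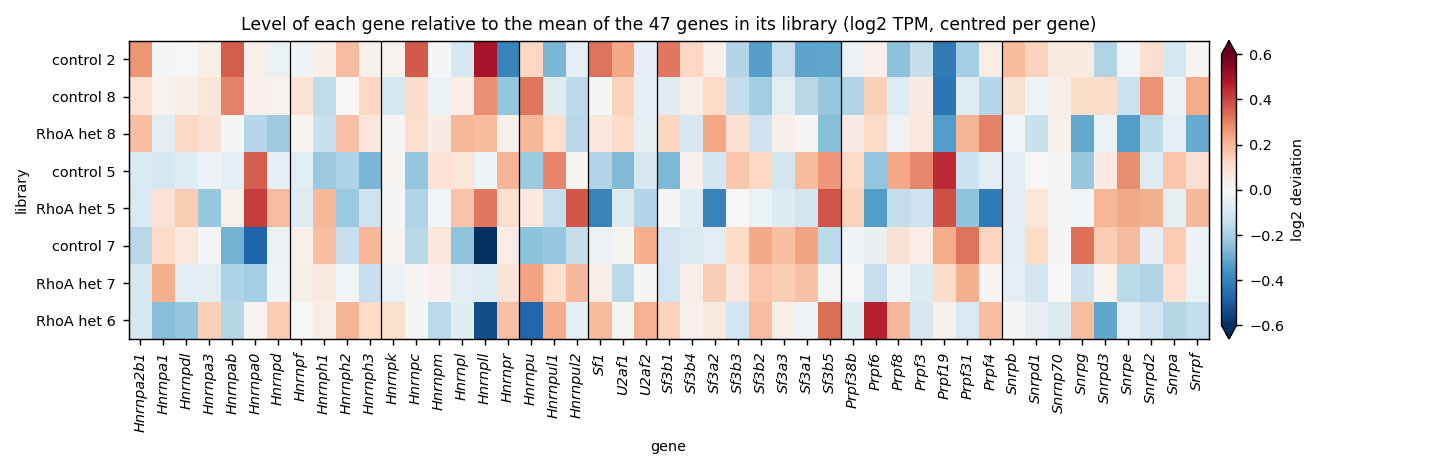
Level of each gene relative to the mean of the 47 genes in its library, centred per gene, in log2 TPM (red above and blue below the gene's own mean, with arrows of the scale bar for values past its ends), by library and class. Prpf19 is high in both libraries numbered 5 and low in control 2 and both libraries numbered 8, and Hnrnpll is high in control 2 and low in control 7 and RhoA het 6.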

How the data were processed

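RNA sequencing libraries of 4 control and 4 RhoA het samples were grouped by their titles. The authors deposited whole-number counts per gene, made, per the file headers, with featureCounts 1.6.4 in paired-end mode, without strand, over the exons of GENCODE release M 34 on mm39. The header sets no option for multi-mapping or overlapping fragments, and the alignments were made with STAR, per the submitters' processing notes. The counting command named 10 alignment files, and the libraries outside the table were not analysed here. TPM were deposited too, and recomputing them from the counts and the deposited gene lengths gave a largest relative difference of 1.5e-14. Symbols came from GENCODE M 21 (51884 of 57180 genes) and promoters from RefSeq on GRCm38.p6.

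Counts were tested with edgeR 4.0.16 in R 4.3.3: filterByExpr, TMM scaling, quasi-likelihood F test, Benjamini-Hochberg adjustment over all genes tested and a threshold of 0.05. The log2 CPM values use a prior count of 2. Intervals are 95% from the fit, and exact permutation tests ran over 70 assignments of log2 CPM. The fits were tested on simulated data. Alternatives were DESeq2 1.42.0, limma 3.58.1 on voom and TPM values, other scalings and filters, a replicate block, and leaving out each library. The block was checked by correlating deviations from the group means over all genes. Same-numbered libraries gave 0.544, 0.231 and 0.488 for numbers 5, 7 and 8, each over 0.1, so the numbers were taken to pair the libraries. Pairs of different numbers gave -0.373 to 0.122. Of these, control 2 and control 7 with RhoA het 6 were also over 0.1 (0.122 and 0.118). Over the members alone, same-numbered libraries gave 0.349, 0.367 and 0.442, and control 2 with RhoA het 8 gave 0.448. The pairing comes from the data, since the labels do not explain the numbers. Composition and dispersion measures were added after values were seen.

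The members, gene lists and tests were chosen with earlier results of these data known. Values in every library are given for the member of each class with the highest mean TPM, the smallest unadjusted p for genotype and the smallest for replicate number, and up to 2 genes per other splicing list are named by the smallest p for genotype, of which 1 is not reported here. Prpf38a, Rnpc3 and the other members named singly were chosen after their values were seen.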

Additional observations from a re-analysis of the deposited data

Results flagged for a closer look

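In each group of 4 libraries, the gap of the most extreme library to its nearest neighbour was divided by the range of log2 CPM, and ratios past Dixon's 95% critical value are given. Among 94 such groups (47 genes in each genotype) 6 passed, where chance gives about 4.7. RhoA het 5 stood apart 3 times: high for Hnrnpa0 (ratio 0.8296, 44.1 CPM against 29.4 to 31.5 in the other RhoA het libraries), low for Hnrnpa3 (ratio 0.8792, 176 CPM against 214 to 219) and low for Hnrnph2 (ratio 0.8348, 130.4 CPM against 164.5 to 172). Control 5 was low for Hnrnph3 (ratio 0.9425, 48.1 CPM against 68.3 to 69.8 in the other controls) and high for Sf3b5 (ratio 0.8647, 23.2 CPM against 17.7 to 18.4). RhoA het 7 was high for Sf3b4 (ratio 0.8953, 208 CPM against 174 to 177). In 5 of the 6 cases the library had replicate number 5, the number in which cycling cell genes were highest in both groups, and whether this bears on the values was not tested.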

How the results depend on the processing

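No alternative called a member between genotypes, and none of the 418 recomputed fold changes of the 22 named members passed the threshold. The sign of these uncalled values was the same in every alternative for 10 of the 22 and changed in at least 1 for 12, at sizes up to 0.23 in log2. Leaving out each library in turn gave 0 to 3 members at an unadjusted p under 0.05 (1.92% to 4.36% of all genes, with 3 members and 4.36% both without control 5) and medians of -0.17 to -0.06. With the replicate block over 3 pairs the median was -0.04, 0 members were called and 0 were at an unadjusted p under 0.05, and the block changed no call of a member or of another splicing gene. Between replicate numbers, 2 members were called with total counts and 3 without the low-count filter, and 0 to 3 with each library left out. For number 5 against 7 and 8, 2 were called with total counts, 2 without the filter, 2 with limma on log2(TPM + 1), and 0 to 2 with each library left out. Added genes were Hnrnpa0 and Hnrnpll, and in the contrast of number 5 without control 7 Sf3a2; the cause was not tested. With 4 libraries a group, the narrowest interval of a member still spanned 0.25 in log2 to each side.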
